A study of Homo sapiens with 12 samples.

Results

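The mitosis genes described here are 45 genes that work between the entry into mitosis and the separation of the daughter cells: cyclins and CDK1 with their regulators, mitotic kinases, spindle checkpoint and kinetochore proteins, kinesins, cytokinesis proteins and proteins that shape mitotic chromosomes. They were taken as a list of 45 gene IDs, each given with its symbol, and all 45 were found among the 18569 gene IDs measured. Their transcripts held 2879 of the 842183 positions in the data, and the rule for the list names genes and uses no measured value, although it was drawn up with earlier results of these data known.

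The measurements came from LNCaP-AI, a cell line of castration-resistant prostate cancer whose labels give androgen deprivation therapy as the treatment of every sample. Cells carried a stably integrated lentiviral hairpin, either shMETTL1, which silences METTL1, or the control shscramble, so all groups shared the cell line, the treatment and lentiviral transduction. METTL1 is the methyltransferase that places N7-methylguanosine (m7G) in RNA. Each group had 3 replicates, each with an AlkAniline-Seq library and an input library, which makes 12 libraries of total RNA.

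AlkAniline-Seq turns m7G into a break in the RNA chain: alkaline treatment opens the methylated base, aniline cuts the chain there, and the fragment that begins just after the modified base is ligated and read, so that a read start marks a position. Input libraries went without this enrichment and hold read starts of the same RNA. The count at a position is the number of reads that start there, and the coverage is the number of reads that span it. In bulk RNA, fewer cells in mitosis and fewer transcripts per cell cannot be told apart. The reads of METTL1 and of prostate marker genes were not analysed here, because no table used here pairs their names with gene IDs, so neither the silencing nor the cell identity was checked from these counts.

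Mitotic genes are switched on together late in the cell cycle. CDK1 bound to a B-type cyclin starts mitosis, the spindle checkpoint holds the anaphase-promoting complex back until every kinetochore is attached to the spindle, and this complex, activated by CDC20, then marks cyclin B and securin for destruction. Many of these genes share promoter letters known as the cell cycle homology region, where the DREAM and MuvB complexes act, often beside CCAAT boxes, where NF-Y binds.

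The promoters of the list show this shared feature, which played no part in choosing it. RefSeq promoters on GRCh38.p14, each from 250 bases before to 50 bases after a gene start, were at hand for 37 of the 45 genes (51 promoters). BUB3, AURKA, TTK, TPX2, BIRC5, UBE2C, RACGAP1 and FOXM1 had no entry. TTTGAA, searched on both strands, was in 29 of the 51 promoters (56.9%, 26 genes) and in 15.2% of all 35116 promoters. TTCGAA, which reads the same on both strands, was in 3 promoters (5.88%) against 1.45% of all. One or the other was in 31 promoters (60.8%, 28 genes) against 16.4%. CCAAT, on either strand, was in 34 promoters (66.7%, 29 genes) against 34.6% of all. A CCAAT can share its last T with the first T of TTTGAA, and each was then counted. These matches describe letters and not binding. The stretches below are only some of the matches, from genes whose reads are described further on. They run 5′ to 3′ on the strand of the gene, with the match in capitals (TTCAAA is TTTGAA on the other strand).
CCNB2, chr15:59105108-59105131, + strand: gacgcggtaTTTGAAtcctggaac
CKS2, chr9:89311157-89311180, + strand: gctgtcggaTTCAAAtccggatcg
CKS1B, chr1:154974642-154974665, + strand: ggcggcgtgTTTGAAagcgaggcc
BUB1B, chr15:40161037-40161060, + strand: accgttaaaTTTGAAacttggcgg
KIF23, chr15:69414285-69414308, + strand: attggcccgTTTGAAatgcgccag
PRC1, chr15:90994541-90994564, - strand: gtggcgcggTTTGAAattttgcgg
ANLN, chr7:36389833-36389856, + strand: aaattcaaaTTTGAAcggctgcag
The match started 29 bases before the gene start in CCNB2 and CKS2, 30 in CKS1B, 23 in BUB1B, 20 in PRC1 and ANLN, and 55 in KIF23. The ANLN stretch also holds ttcaaa in lower case, another match of the same list, on the other strand and 26 bases before the start. Genes of other roles had a match at the same distances, such as PLK1 and MKI67 at 29. Matches of other genes lay farther out, such as SMC4 at 75, ASPM at 113, and TOP2A at 151 and 194. Those of CDK1 lay 69 and 161 bases before different starts of that gene.

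AlkAniline-Seq libraries summed to between 1421551 and 2764417 counts and input libraries to between 2783709 and 3258499. Within these totals, 3 libraries stood apart in how their reads were spread. The input of shscramble replicate 2 read the mitosis genes at a median of 4.06 on the log2(CPM + 1) scale. The other 5 inputs were at 5.48 to 5.79. CPM on this scale, the usual library-scaled counts, are taken after TMM scaling. In the input of shscramble replicate 2, 7 of the 45 genes had 3 reads or fewer. TTK, which was not tested in the inputs, was among them. The input of shMETTL1 replicate 1 had reads at 311979 positions, against 72098 to 165105 in the other inputs. Among AlkAniline-Seq libraries, at least 1 read of shscramble replicate 1 was present at each mitosis gene position that reached 50 reads in shscramble replicate 2 or 3 (100%), while for the other ordered pairs this share was 19.2% to 50%. At the 53 such positions of replicate 2 without a read in replicate 3, replicate 1 held a median of 10.6% of the reads of replicate 2. At the 22 such positions of replicate 3 without a read in replicate 2, it held a median of 14.02%. Over all gene IDs these medians were 10.6% and 14.7%. Positions read in every library of 1 group only and positions past the study's thresholds are therefore counted with and without shscramble replicate 1. Other counts of shared positions include it. The part of this overlap in the results was not tested.

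Summed over the 45 genes, the knockdown and control libraries overlapped in AlkAniline-Seq reads. The genes took 3821, 3864 and 3440 CPM, taken on total counts without TMM, in the shscramble AlkAniline-Seq libraries (3708 ± 233, SD, n = 3) and 3448, 3579 and 3012 in the shMETTL1 libraries (3346 ± 297, SD, n = 3). In the inputs they took 3114, 2527 and 3123 CPM in shscramble (2921 ± 341, SD, n = 3) and 3059, 2732 and 3088 in shMETTL1 (2959 ± 198, SD, n = 3). On this scale the highest and lowest libraries of the 2 groups interleaved in both assays. After TMM, input sums of the 44 genes tested were 3107, 3821 and 2956 CPM in shscramble and 2582, 2571 and 2840 in shMETTL1. Each knockdown input then lay below each control input, so the separation of the input sums depended on the scaling. The AlkAniline-Seq sums after TMM still overlapped, at 3635, 3803 and 3471 CPM against 3380, 4017 and 3183 CPM.

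The pooled share of coverage separated the groups, while the same share taken gene by gene did not shift one way. Reads starting at the listed positions made up 7.21%, 7.57% and 6.75% of the coverage of the mitosis genes in the shscramble AlkAniline-Seq libraries and 7.91%, 9.03% and 8.12% in the shMETTL1 libraries, so every knockdown library was above every control library. The inputs, which hold no enrichment for m7G, were separated the same way, at 6.53%, 6.01% and 6.56% in shscramble and 8.99%, 7.87% and 7.86% in shMETTL1. Over all gene IDs the shares in AlkAniline-Seq overlapped (6.995%, 7.07% and 6.61% against 6.39%, 6.28% and 6.96%), while those in the inputs were also higher in each shMETTL1 library (6.55%, 6.43% and 6.60% against 7.76%, 7.07% and 6.86%). Tested gene by gene with limma on log2(percent + 1), the share in AlkAniline-Seq libraries was lower in knockdown for 21 of the 45 genes and higher for 24, with a median log2 difference of 0.0078 and 0 genes called. Over all gene IDs 56.2% were lower and 0.027% were called. At an unadjusted p of 0.05 there were 2 of the 45, 1 higher and 1 lower, against 6.58% of all gene IDs.

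**Figure D1:**
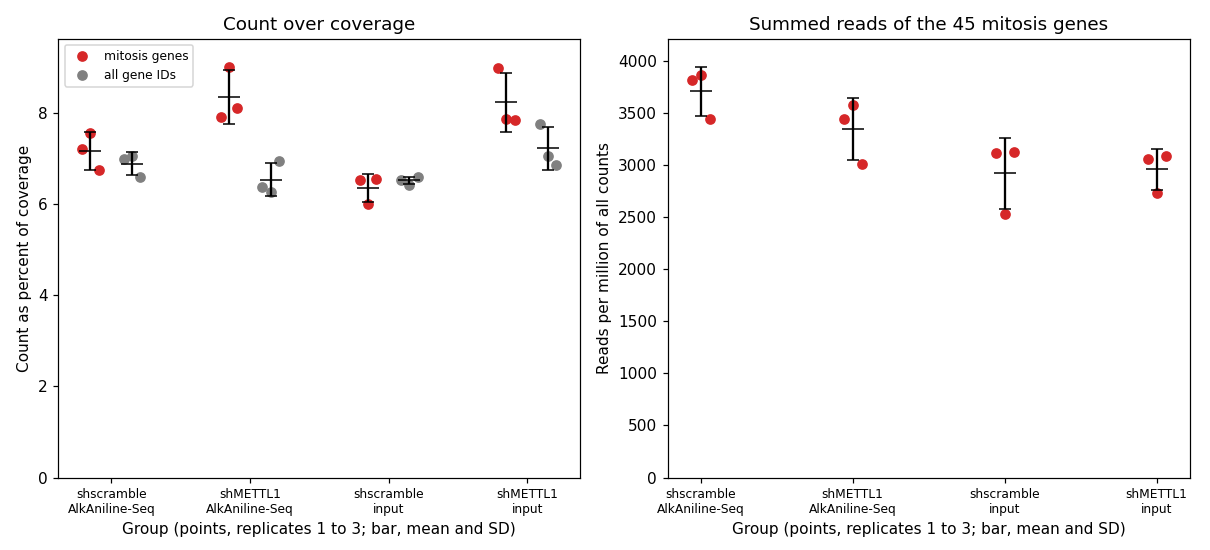
Left, counts at the listed positions as a percent of coverage, for the 45 mitosis genes (red) and all gene IDs (grey). Right, reads of the 45 genes in CPM on total counts. Points are the replicates 1 to 3 of each group and bars the mean and SD. The red points of shMETTL1 lie above those of shscramble in both assays on the left and interleave with them on the right.

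Single genes were tested on their summed reads with edgeR's quasi-likelihood test, adjusted by Benjamini-Hochberg over all gene IDs tested. In AlkAniline-Seq reads all 45 genes passed the filter on low counts and 0 were called at an adjusted p of 0.05, where 0.00901% of all 11097 gene IDs were. At an unadjusted p of 0.05 there were also 0 of 45 against 6.97% of all gene IDs. DESeq2 called 0 of the 45 as well, against 1.63% of the gene IDs it tested. The log2 fold change of shMETTL1 over shscramble was below 0 for 24 genes (47.1% of all gene IDs) and above 0 for 21, with a median of -0.26 against 0.07 over all gene IDs, and ran from -2.23 (KIF23) to 3.21 (TTK).

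In input reads 44 of the 45 genes passed the filter, all but TTK, and 0 were called by edgeR, as for all 11740 gene IDs (0%). NEK2, CCNB2 and ASPM had an unadjusted p under 0.05, 3 of the 44 against 6.26% of all gene IDs, and all 3 lower in knockdown, as were 4.62% of all gene IDs. DESeq2 called 1 of them, NEK2, against 0.305% of all gene IDs. The log2 fold change was below 0 for 27 of the 44 genes (51.5% of all gene IDs), with a median of -0.14 against -0.04 over all. Scaling to library size alone in place of TMM moved the median of all gene IDs to 0.22 and that of the mitosis genes to 0.05, so the sign of the input median turned with the scaling.

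Replicates scattered widely, for these genes as for all gene IDs, which limits what 3 against 3 libraries can resolve. The biological coefficient of variation estimated by edgeR over all gene IDs tested was 0.90 for AlkAniline-Seq and 0.81 for input reads. The median SD of a mitosis gene over replicates, on the log2(CPM + 1) scale, was 0.65 in shscramble and 1.03 in shMETTL1 AlkAniline-Seq libraries, and 1.41 and 0.52 in their inputs. Over all gene IDs tested it was 0.85 and 1.17 in AlkAniline-Seq libraries, and 1.30 and 0.58 in the inputs. The shscramble AlkAniline-Seq values include replicate 1, whose reads overlap those of the other controls as given above. Whether these control libraries are independent was not tested, which limits every AlkAniline-Seq SD and p-value given here. Much of each gene's count came from a single position: the top position of a gene held a median of 29.2% to 57.0% of its AlkAniline-Seq reads in a library, and 18.3% to 75% in the inputs.

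**Figure D2:**
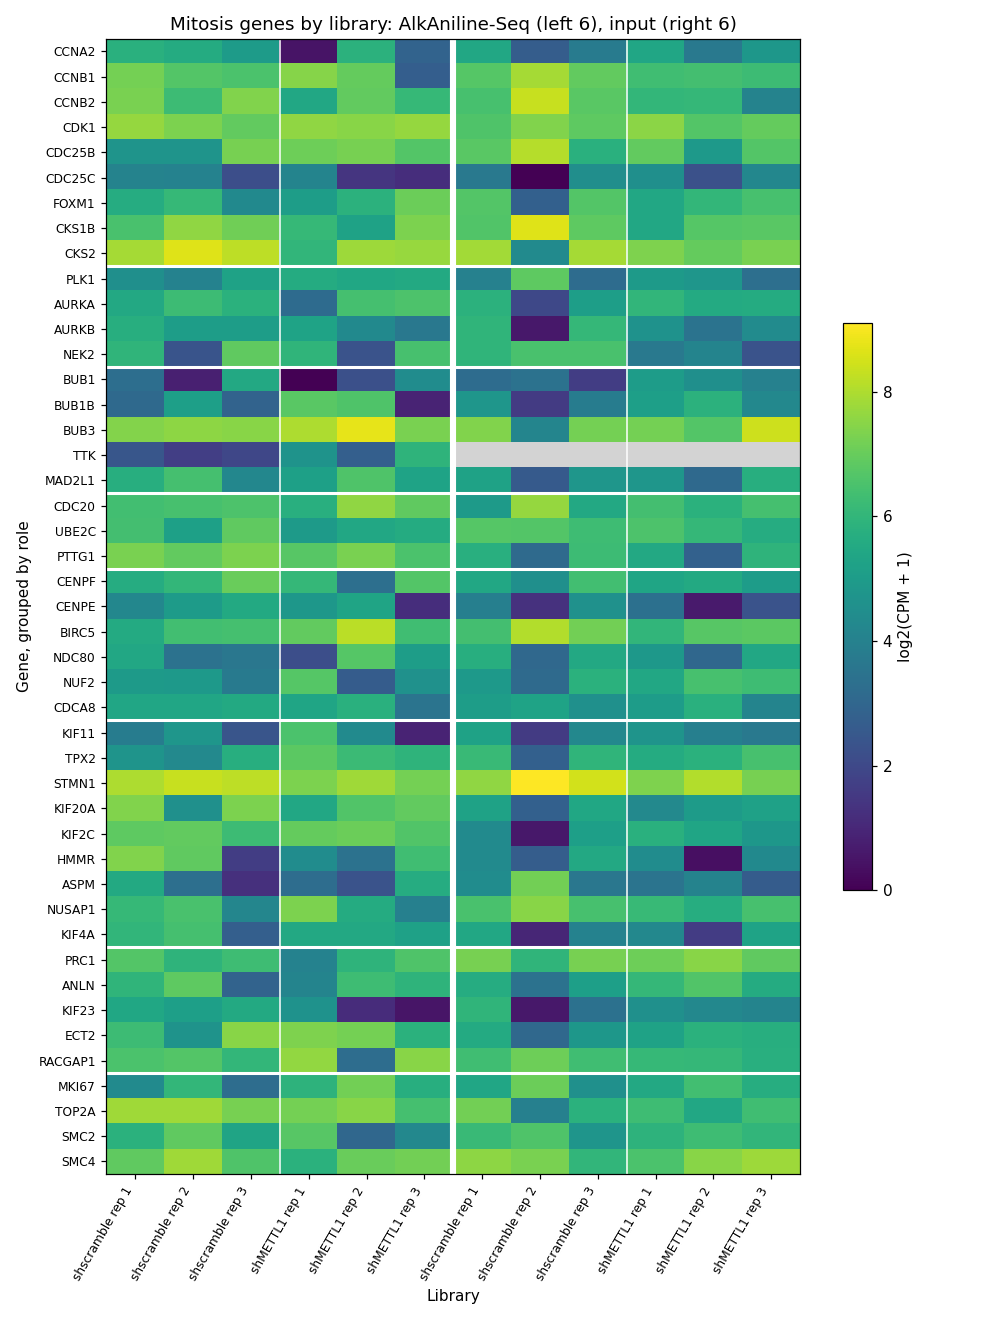
Level of the 45 mitosis genes in the 12 libraries as log2(CPM + 1), grouped by role and divided by white lines into roles and groups. Colours compare libraries within a row, not genes, since reads were not divided by length. TTK is grey in the inputs, where it did not pass the filter. Colours vary within groups as well as between them, and the input of shscramble replicate 2 is darker or brighter than its neighbours in many rows.

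**Figure D3:**
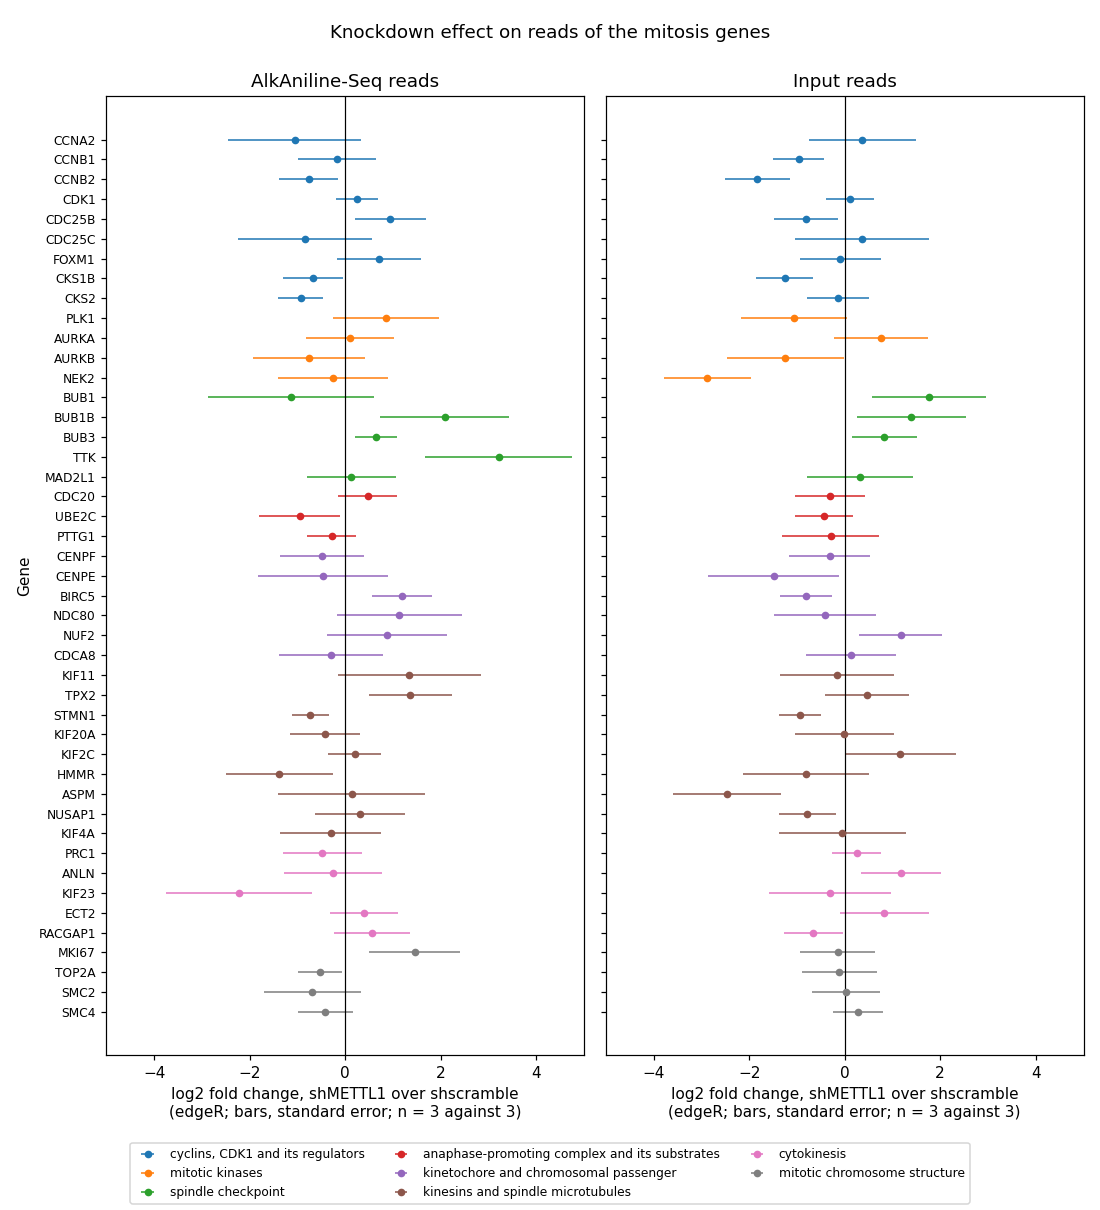
Log2 fold change of shMETTL1 over shscramble for each mitosis gene in AlkAniline-Seq reads (left) and input reads (right), with standard errors as bars and colours for the roles. In AlkAniline-Seq reads 24 points lie below 0 and 21 above, from -2.23 for KIF23 to 3.21 for TTK.

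Among the 9 cyclins, CDK1 and its regulators, 6 lay below 0 in AlkAniline-Seq reads, with a median log2 fold change of -0.68, and 6 below 0 in input reads, with a median of -0.14, and none was called in either. CKS2 (ENSG00000123975), a small subunit that binds CDK1 and helps it reach its substrates, was at 235, 407 and 292 CPM in the shscramble AlkAniline-Seq libraries and at 62.8, 216 and 209 CPM in the shMETTL1 ones. Its groups did not overlap, with a log2 fold change of -0.94 (SE 0.47, adjusted p = 0.753, and -0.54 without shMETTL1 replicate 1), but its inputs did, at 229, 19.7 and 234 CPM against 163, 123 and 153 CPM. CKS2 was 1 of 3 mitosis genes, with STMN1 and KIF23, whose 3 knockdown libraries all lay below the controls, against 7.38% of all gene IDs.

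CCNB2 (ENSG00000157456), a B-type cyclin that activates CDK1, was at 87.4, 325 and 107 CPM in the shscramble inputs and at 63.9, 65.9 and 15.9 CPM in the shMETTL1 inputs. All 3 knockdown inputs were lower, with a log2 fold change of -1.83 (SE 0.68, adjusted p = 0.765) that shrank to -1.01 without shscramble replicate 2. In AlkAniline-Seq reads the same gene overlapped between groups, at 153, 75.009 and 167 CPM against 43.3, 121 and 67.9 CPM. CCNB1, the main mitotic cyclin, was at 104, 233 and 119 CPM in the shscramble inputs and at 77.6, 82.3 and 74.4 CPM in the shMETTL1 inputs (log2 fold change -0.96, SE 0.53, adjusted p = 0.811, and -0.51 without shscramble replicate 2). Both cyclins thus had separated inputs, with the shscramble replicate 2 value the highest of each. CKS1B, the close relative of CKS2, was at 97.9, 399 and 115 CPM in shscramble and 42.6, 104 and 109 CPM in shMETTL1 inputs, where the groups overlapped (log2 fold change -1.26, SE 0.60, adjusted p = 0.766). Without the input of shscramble replicate 2 its log2 fold change was -0.32, and with that of shMETTL1 replicate 1 left out too it was 0.0056.

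CDC25B, a phosphatase that switches CDK1 on, was read at 25.3, 25.1 and 150 CPM in the shscramble AlkAniline-Seq libraries and at 134, 150 and 101 CPM in the shMETTL1 ones, and its inputs were at 108, 275 and 53.6 CPM against 119, 28.7 and 102 CPM. The groups overlapped in both. Over input, that is the knockdown change in AlkAniline-Seq reads beyond the change in the inputs, its log2 difference was 1.92 (SE 1.07, adjusted p = 0.662). It was 0.62 without shscramble replicate 2 and 3.75 without shscramble replicate 3. CDK1, the kinase itself, was at 204, 159 and 119 CPM against 192, 178 and 202 CPM in AlkAniline-Seq libraries. CCNA2, FOXM1, the transcription factor of many genes of this list, and CDC25C had AlkAniline-Seq log2 fold changes of -1.06, 0.71 and -0.85, with adjusted p from 0.953 to 0.970.

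The 4 mitotic kinases had a median log2 fold change of -0.08 in AlkAniline-Seq and -1.15 in input reads, where 3 of the 4 lay below 0. The input median was -0.27 with the replicate number as a block and -0.19 in the methods' t-test, and without shscramble replicate 2 it was -0.80 with 2 of the 4 below 0. NEK2 (ENSG00000117650), a kinase that frees the centrosomes from each other, was at 60.5, 88.9 and 89.1 CPM in the shscramble inputs and at 11.9, 16.4 and 3.97 CPM in the shMETTL1 inputs. Every knockdown input lay below every control input, with a log2 fold change of -2.88 (SE 0.91, adjusted p = 0.747), and -2.79 (adjusted p = 0.455) without shscramble replicate 2. DESeq2 gave NEK2 a log2 fold change of -3.14 in the inputs with an adjusted p of 0.0258, the one call for any of the 45 genes, while over the alternatives tried its adjusted p ran from 0.0258 to 0.999991.

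In AlkAniline-Seq reads NEK2 showed no such separation, at 60.5, 4.13 and 118 CPM in shscramble and 60.9, 4.06 and 87.1 CPM in shMETTL1. Its log2 difference over input was 2.75 (SE 1.51, adjusted p = 0.655), and 1.74 without shMETTL1 replicate 3. PLK1, which drives centrosome maturation and spindle assembly, was at 22.0, 15.4 and 36.9 CPM in the shscramble and 47.2, 42.2 and 44.8 CPM in the shMETTL1 AlkAniline-Seq libraries. It was 1 of 3 genes, with TTK and TPX2, whose knockdown libraries all lay above the controls (7.10% of all gene IDs), at a log2 fold change of 0.86 (SE 1.11, adjusted p = 0.955). Its inputs overlapped, at 14.9, 113 and 8.41 CPM against 29.9, 26.4 and 8.93 CPM. AURKA, the spindle pole kinase, and AURKB, the kinase of the chromosomal passenger complex, had AlkAniline-Seq log2 fold changes of 0.10 and -0.76, with adjusted p of 0.995 and 0.969.

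Of the 5 spindle checkpoint genes 4 lay above 0 in AlkAniline-Seq reads, with a median log2 fold change of 0.65, and the 4 tested in the inputs were all above 0, with a median of 1.11. Without the input of shscramble replicate 2, in which several of these genes had few reads, 5 were tested, 2 lay below 0 and the median was 0.33. Without shMETTL1 replicate 3 the median was 0.19 with 1 of 5 below 0, so the input pattern rested on single libraries of both groups. TTK (ENSG00000112742), the kinase that starts checkpoint signalling at unattached kinetochores, was at 4.40, 2.25 and 2.84 CPM in the shscramble AlkAniline-Seq libraries and at 24.6, 5.68 and 58.9 CPM in the shMETTL1 ones. Its groups did not overlap and its log2 fold change of 3.21 (SE 1.54, adjusted p = 0.724) was the highest of the 45, but it rests on 8, 6 and 4 reads against 63, 14 and 138. In the inputs TTK had 8, 0 and 19 reads against 24, 1 and 5, and its log2 difference over input was 3.40 (SE 2.15, adjusted p = 0.713), ranging from 2.199 to 4.93 with each replicate left out.

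BUB1B (ENSG00000156970), the checkpoint protein BubR1, was at 7.70, 34.1 and 6.39 CPM in shscramble and 109, 95.8 and 0.854 CPM in shMETTL1 AlkAniline-Seq libraries, with the third knockdown library the lowest of all 6 (log2 fold change 2.08, SE 1.35, adjusted p = 0.844, and 3.31 without shscramble replicate 2). As a share of its coverage the difference had the opposite sign. BUB3, the partner of BUB1 and BubR1, was at 172, 189 and 177 CPM against 251, 436 and 154 CPM (log2 fold change 0.65, SE 0.43, adjusted p = 0.853), so the groups overlapped, and the fold change was 0.20 without shMETTL1 replicate 2. BUB1, the kinase that marks the inner centromere, was at 8.24, 9.83 and 2.18 CPM in the shscramble and 31.9, 22.0 and 14.9 CPM in the shMETTL1 inputs. It was the one mitosis gene whose knockdown inputs all lay above the controls (7.64% of all gene IDs), with a log2 fold change of 1.77 (SE 1.19, adjusted p = 0.848). Its AlkAniline-Seq log2 fold change was -1.14 (adjusted p = 0.967), and that of MAD2L1, the inhibitor of CDC20, was 0.13 (adjusted p = 0.994).

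The anaphase-promoting complex was represented by its activator CDC20, its ubiquitin-conjugating enzyme UBE2C and its substrate securin, PTTG1. Their AlkAniline-Seq log2 fold changes were 0.47, -0.95 and -0.28, and all 3 lay below 0 in the inputs, between -0.43 and -0.30. None was called, with AlkAniline-Seq adjusted p from 0.908 to 0.974.

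Among the 6 kinetochore and chromosomal passenger genes 3 lay below 0 in AlkAniline-Seq reads and 4 in the inputs, with medians of 0.29 and -0.36. BIRC5 (ENSG00000089685), or survivin, the passenger protein that brings Aurora B to the centromere, was at 46.2, 81.0 and 85.2 CPM in the shscramble and 120, 285 and 78.6 CPM in the shMETTL1 AlkAniline-Seq libraries (log2 fold change 1.19, SE 0.62, adjusted p = 0.769). In the inputs it ran the other way, at 82.7, 265 and 142 CPM against 63.1, 107 and 110 CPM (log2 fold change -0.80, SE 0.55, adjusted p = 0.849). The groups overlapped in both assays, and the 2 fold changes were 0.51 without shMETTL1 replicate 2 and -0.27 without shscramble replicate 2. Over input, 0 of the 45 genes were called (0.00777% of all gene IDs), and BIRC5 was the one with an unadjusted p under 0.05, against 8.35% of all 12877 gene IDs and 5.3% in the higher direction, with a log2 difference of 2.15 (SE 0.86, adjusted p = 0.527). DESeq2 also called 0 over input (0.761% of all gene IDs). Of the 45 log2 differences over input 22 were below 0 (43.8% of all gene IDs), with a median of 0.13 against 0.24 over all.

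The share of coverage of BIRC5 in AlkAniline-Seq libraries was 6.55%, 9.97% and 16.8% in shscramble and 9.58%, 11.3% and 8.43% in shMETTL1, where the groups overlapped and the difference was slightly below 0. CENPE and CENPF, which link kinetochores to microtubules, had AlkAniline-Seq log2 fold changes of -0.47 and -0.48. NDC80 and NUF2, which together form the microtubule-binding arm of the kinetochore, were at 1.13 and 0.88, and CDCA8, or borealin, at -0.30, with adjusted p from 0.941 to 0.987 over these 5 genes.

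Of the 9 kinesins and spindle microtubule genes 4 lay below 0 in AlkAniline-Seq reads, with a median log2 fold change of 0.13, and 7 in the inputs, with a median of -0.16. STMN1 (ENSG00000117632), or stathmin, which takes microtubules apart, was at 251, 327 and 296 CPM in the shscramble AlkAniline-Seq libraries and at 159, 223 and 146 CPM in the shMETTL1 ones. Each knockdown library lay below each control library, with a log2 fold change of -0.73 (SE 0.39, adjusted p = 0.769). In the inputs STMN1 was at 193, 550 and 353 CPM against 161, 265 and 149 CPM, with overlap and a log2 fold change of -0.93 (SE 0.44, adjusted p = 0.766) that was -0.51 without shscramble replicate 2. Its reads were thus lower on average in both assays, and its share of coverage in AlkAniline-Seq libraries overlapped, at 2.68%, 3.05% and 4.16% against 2.30%, 4.86% and 3.64%.

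TPX2 (ENSG00000088325), which activates Aurora A on the spindle, was at 25.3, 18.4 and 51.8 CPM in the shscramble and 112, 73.1 and 60.2 CPM in the shMETTL1 AlkAniline-Seq libraries, with no overlap (log2 fold change 1.36, SE 0.88, adjusted p = 0.840). Its inputs overlapped, at 71.0, 5.90 and 61.0 CPM against 48.0, 56.0 and 87.3 CPM. ASPM, a protein of the spindle poles, was at 20.6, 142 and 11.2 CPM in the shscramble and 10.4, 15.8 and 5.29 CPM in the shMETTL1 inputs (log2 fold change -2.46, SE 1.13, adjusted p = 0.766). Most of its control mean came from replicate 2, and leaving out libraries 1 at a time moved the log2 fold change between -2.98 and -0.60. The log2 difference of ASPM over input was 2.77 (SE 1.86, adjusted p = 0.732), from AlkAniline-Seq levels of 45.1, 9.001 and 1.42 CPM against 8.58, 4.06 and 48.3 CPM. That difference was 0.48 without shscramble replicate 2, 0.80 without shMETTL1 replicate 3 and 4.83 without shscramble replicate 1.

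NUSAP1, which bundles spindle microtubules, had inputs of 88.4, 178 and 87.8 CPM in shscramble and 69.8, 49.5 and 86.3 CPM in shMETTL1. The groups were separated by little (log2 fold change -0.78, SE 0.59, adjusted p = 0.869). It was 1 of 5 mitosis genes, with NEK2, CCNB1, CCNB2 and RACGAP1, whose knockdown inputs all lay below the controls, against 5.84% of all gene IDs. The motors KIF11, KIF20A, KIF2C and KIF4A and the hyaluronan receptor and spindle protein HMMR had AlkAniline-Seq log2 fold changes of 1.34, -0.42, 0.20, -0.30 and -1.38, with adjusted p from 0.892 to 0.987.

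Among the 5 cytokinesis genes 3 lay below 0 in AlkAniline-Seq and 2 in input reads. KIF23 (ENSG00000137807), the motor of the centralspindlin complex at the midzone, was at 41.8, 34.5 and 45.4 CPM in the shscramble and 24.2, 1.22 and 0.427 CPM in the shMETTL1 AlkAniline-Seq libraries, from 76, 92 and 64 reads against 62, 3 and 1. The knockdown libraries were all lower but far apart, and the log2 fold change of -2.23 (SE 1.53, adjusted p = 0.856) was the lowest of the 45. Its inputs overlapped, at 60.8, 0.491 and 9.65 CPM against 22.8, 18.2 and 16.2 CPM. RACGAP1, the other centralspindlin subunit, had inputs of 79.2, 136 and 79.4 CPM against 67.0, 66.5 and 52.2 CPM (log2 fold change -0.66, SE 0.62, adjusted p = 0.900) and overlapping AlkAniline-Seq levels of 91.8, 102 and 63.9 CPM against 195, 8.53 and 177 CPM.

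PRC1 cross-links antiparallel microtubules of the midzone, and ANLN, or anillin, is the scaffold of the contractile ring. Both were set for description with earlier results of these data known. PRC1 was at 102, 59.6 and 77.4 CPM in the shscramble and 15.6, 60.1 and 95.7 CPM in the shMETTL1 AlkAniline-Seq libraries (log2 fold change -0.48, SE 0.82, adjusted p = 0.970), and ANLN at 61.6, 115 and 6.39 CPM against 16.4, 76.7 and 59.8 CPM (log2 fold change -0.26, SE 1.02, adjusted p = 0.987). Both overlapped between groups, and the sign for ANLN turned under several alternatives. In the inputs the log2 fold change of PRC1 was 0.25 (SE 0.52, adjusted p = 0.969), from 151, 61.4 and 149 CPM against 135, 179 and 116 CPM, and that of ANLN 1.18 (SE 0.84, adjusted p = 0.859), from 49.1, 9.83 and 33.9 CPM against 65.7, 97.9 and 47.3 CPM. ECT2, the exchange factor that activates RhoA at the furrow, had an AlkAniline-Seq log2 fold change of 0.39 (adjusted p = 0.974).

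Of the 4 genes of mitotic chromosome structure 3 lay below 0 in AlkAniline-Seq reads. MKI67 (ENSG00000148773), the proliferation marker Ki-67 that coats mitotic chromosomes, was the exception, at 19.2, 64.5 and 8.52 CPM in shscramble and 58.5, 144 and 51.7 CPM in shMETTL1 libraries (log2 fold change 1.45, SE 0.96, adjusted p = 0.847). The fold change was 0.85 without shMETTL1 replicate 2 and 2.63 without shscramble replicate 2. Its groups overlapped, as did its inputs, at 40.6, 131 and 22.7 CPM against 44.1, 80.9 and 50.6 CPM. TOP2A, which untangles DNA, and the condensin subunits SMC2 and SMC4 had log2 fold changes of -0.53, -0.69 and -0.42, with adjusted p from 0.908 to 0.966.

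AlkAniline-Seq was also set against the input within each group, in the fit over all 12 libraries. In shscramble cells 0 of the 45 genes were called (0.637% of all gene IDs) and 3 had an unadjusted p under 0.05 (13.2% of all gene IDs). The microtubule-destabilising kinesin KIF2C was higher after cleavage by a log2 difference of 2.30 (SE 0.90, adjusted p = 0.274), at 114, 119 and 73.8 CPM in AlkAniline-Seq libraries and 19.6, 0.491 and 33.9 CPM in the inputs. KIF20A, a midzone motor, was higher by 1.83 (SE 0.88, adjusted p = 0.375) and the log2 difference of BIRC5 was -1.45 (SE 0.62, adjusted p = 0.316). In shMETTL1 cells 0 of the 45 were called (0.21% of all gene IDs) and 2 had an unadjusted p under 0.05 (8.27% of all gene IDs), PRC1 at -1.42 (SE 0.65, adjusted p = 0.574) and TTK at 3.35 (SE 1.59, adjusted p = 0.596). DESeq2 called 0 of these genes in shscramble (4.51% of all gene IDs) and 0 in shMETTL1 (0.888%). The log2 difference was below 0 for 25 of the 45 genes in shscramble (52.1% of all gene IDs) and for 14 in shMETTL1 (43.5%).

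Single positions are where m7G would be read. Of the 2879 positions, 1433 had a read in any AlkAniline-Seq library, 802 of them (56.0%) in exactly 1 library and 13 (0.907%) in all 6, against 62.9% and 1.897% over all gene IDs. Reads in shscramble libraries only were found at 592 positions (41.3%), in shMETTL1 libraries only at 498 (34.8%), and in both at 343. Over all gene IDs these shares were 39.9% for shscramble only and 39.2% for shMETTL1 only. The number of mitosis gene positions read was 684, 433 and 326 in the shscramble and 396, 313 and 311 in the shMETTL1 libraries, the highest in shscramble replicate 1.

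The position with the highest summed AlkAniline-Seq count was in KIF20A, with 234, 1 and 44 reads in shscramble and 62, 241 and 266 in shMETTL1 libraries. The next lay in SMC4 (17, 150 and 0 against 73, 146 and 0), CKS1B (21, 104 and 57 against 121, 8 and 73) and CKS2 (36, 249 and 7 against 0, 5 and 80). CCNB2 and CDC20 followed with 335 reads each, at 38, 126 and 92 against 1, 0 and 78 and at 20, 23 and 59 against 57, 114 and 62. Each of these 6 most-read positions overlapped between the groups.

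Position by position, 46 positions in 23 of the genes passed the count filter and 0 were called by edgeR, as for all 13973 positions tested (0%). At an unadjusted p of 0.05 there were 6 of the 46, all lower in knockdown, against 8.19% of all tested positions in either direction and 6.32% lower. With at most 4 reads in any knockdown library, these 6 passed the filter on low counts through the shscramble libraries alone, which favoured the lower direction, so their count is a description and no support for it. In FOXM1 a position had 11, 68 and 22 reads in the shscramble libraries and 0 in each shMETTL1 library (adjusted p = 0.315). The others lay in KIF23 (9, 11 and 43 reads against 0, 0 and 0), BIRC5 (22, 82 and 45 against 0, 0 and 0), ECT2 (13, 15 and 59 against 0, 0 and 0), CDK1 (15, 109 and 75 against 0, 1 and 0) and CKS1B (33, 52 and 124 against 1, 4 and 0), with adjusted p from 0.315 to 0.378. All 6 were read in every control library and nearly emptied in the knockdown ones, although the summed reads of FOXM1, BIRC5, ECT2 and CDK1 had log2 fold changes above 0.

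DESeq2 called 5 of these positions, all but the one in KIF23, against 5.29% of the positions it tested. The number of calls changed with the control libraries kept. Without shscramble replicate 3 edgeR called 32 of 123 tested positions of the mitosis genes, 31 of them lower, and 5644 of 29677 over all gene IDs. Leaving out any other library gave 0 calls for the mitosis genes, shscramble replicate 1 included. The controls kept without replicate 3 were shscramble replicates 1 and 2, whose reads overlap as given above. Whether they are independent was not tested. A position read in both could pass the count filter without a knockdown read, which favours the lower direction. The 32 calls are therefore a description and no support for that direction.

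The study's own thresholds, a mean fold over input changed more than 1.5-fold with an unadjusted p under 0.05 on that fold, picked 24 positions of the mitosis genes, 24 lower in knockdown and 0 higher, in 21 genes. Over all gene IDs they picked 0.502% of positions as lower and 0.0976% as higher. At 16 of the 24 positions a control library contributed a single read. At all 24 at least 1 shscramble input had no read, and at 16 none of the 3 had one, in which case the deposited fold over input is the fraction of coverage plus 1, so that a single read puts it above 1. ANLN had 6, 83 and 1 reads in the shscramble libraries against 1, 0 and 0. PRC1 had 7, 79 and 1 reads, STMN1 8, 1 and 58, MAD2L1 10, 64 and 3 and NEK2 10, 1 and 66, each against 0 in every shMETTL1 library. In these 5 positions 1 of shscramble replicates 2 and 3 held most of the reads and replicate 1 held 6 to 10.

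**Figure D4:**
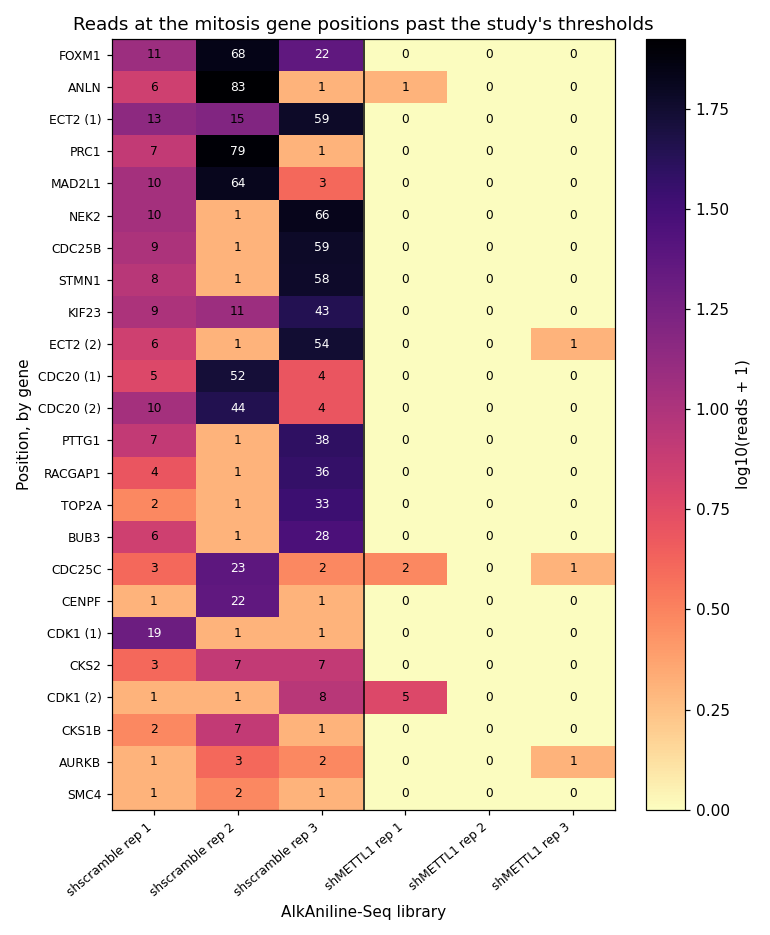
Reads at the 24 positions of mitosis genes that passed the study's thresholds, in the 6 AlkAniline-Seq libraries, printed in each cell and coloured by log10(reads + 1). A number in brackets tells apart positions of the same gene. All 3 shscramble columns have a read in every row, while the shMETTL1 columns hold 0 in most rows and at most 5 reads.

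Positions read in all 3 shscramble libraries and in no shMETTL1 library numbered 28, in 20 of the genes, and the reverse 2. These were among 1433 positions read in any AlkAniline-Seq library. Over all gene IDs there were 4367 and 952 among 404685 such positions. Without shscramble replicate 1 there were 32 and 3 for the mitosis genes and 5538 and 1693 over all gene IDs. Leaving out shscramble replicate 2 gave 113 and 2, beside 23375 and 1317 over all gene IDs. Leaving out shscramble replicate 3 gave 150 and 4, beside 32556 and 1148. With a shMETTL1 library left out there were 32 to 36 and 16 to 19, beside 5708 to 6364 and 4217 to 5402. Of the reads at mitosis genes, 96.0% of those in shscramble replicate 2 and 94.8% of those in replicate 3 lay at positions also read in at least 1 other shscramble library, against 36.0% to 41.9% for the shMETTL1 libraries and their own replicates. With shscramble replicate 1 left out, the study's thresholds gave 33 lower and 1 higher positions of the mitosis genes, beside 5644 and 802 over all gene IDs. Without shscramble replicate 2 they gave 100 and 0, beside 22110 and 728, and without replicate 3 136 and 0, beside 31454 and 681. Leaving out shMETTL1 replicate 1 gave 22 lower and 16 higher, beside 4171 and 4027. Without shMETTL1 replicate 2 there were 21 and 7, beside 4065 and 4575, and without replicate 3 24 and 13, beside 4122 and 4007. The jumps were thus shared by the whole series, and, among the mitosis genes, higher positions numbered 0 or 1 with all knockdown libraries in the comparison and 7 to 16 with a knockdown library left out. What the overlap of the control libraries contributes to these counts was not tested.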

How the data were processed

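LNCaP-AI cells with shMETTL1 or shscramble were profiled by m7G AlkAniline-Seq with matched inputs, 3 replicates per group. Tools listed in the submitters' processing notes were Bowtie2 2.2.4, cutadapt 1.9.1 and bedtools 2.24, with genome build hg19. Which settings and which annotation they were run with is not given in the sources used here. Per position and gene ID, the authors deposited the count of read starts, the coverage, the fraction of count over coverage and the ratio (fold) of that fraction to the input's. The deposited fraction equalled count over coverage at all 842183 positions (tolerance 1e-06). Where only the input's fraction was 0, the fold was the fraction plus 1.

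For each gene ID the counts were summed, scaled by TMM and tested by edgeR 4.0.16 under R 4.3.3 (minimum count 10, minimum total 15, Benjamini-Hochberg over all gene IDs, threshold 0.05). The 2 AlkAniline-Seq groups, the 2 input groups and, for contrasts with the input, all 12 libraries were fitted. The SE of a log2 fold change was its size divided by the square root of F. Fold changes of genes near 0 reads depend on edgeR's prior count. DESeq2 1.42.0, limma 3.58.1 on the share of coverage (pseudocount 1), other filters and scalings, the highest position per gene, each replicate left out, a replicate block and the methods' t-test on log2(CPM + 1) were alternatives. The fits were tested on simulated data. Tables were handled with Python 3.11.15, pandas 2.3.3, numpy 2.4.6, scipy 1.17.1 and matplotlib 3.10.9. Reads of overlapping genes or close copies cannot be told apart, since strand and multimapping rules are not given. The methods call replicates biological for all data in general, and the labels do not say how these were made, so p-values measure the spread between these libraries. An exact permutation test of 3 against 3 cannot go below 0.1.

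The list, its roles and the tests were chosen with earlier results of these data known. Values in every library are given for genes with an adjusted p under 0.05, the 8 with the smallest p in AlkAniline-Seq and in input reads, the 5 over input, and STMN1, PRC1 and ANLN, with the 5 most-read positions (6, through a tie) and the 5 of smallest p. KIF23, PLK1, NUSAP1 and RACGAP1, whose libraries did not overlap, KIF2C and KIF20A, the values of other members and other positions were given after they were seen. Marker genes and other mitosis genes were not looked up, for want of names for their IDs.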

Additional observations from a re-analysis of the deposited data

How the results depend on the processing

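No mitosis gene was called in AlkAniline-Seq reads, over input, or between AlkAniline-Seq and input under any alternative tried, and in input reads only DESeq2 made a call, 1 gene (NEK2). Over all gene IDs DESeq2 called 178 against 1 for edgeR in AlkAniline-Seq reads, 35 against 0 in input reads, 96 against 1 over input, and 713 against 0 positions. The median log2 fold change of the mitosis genes in AlkAniline-Seq reads was 0.058 when the highest position per gene replaced the sum, and -0.21 to -0.036 with each library left out. It ran from -0.32 to 0.084 in the inputs and from -0.024 to 0.45 over input, and library size alone turned the input median to 0.05 and the median over input from 0.13 to -0.34, while the median of all gene IDs over input went from 0.24 to -0.28. Called positions of the mitosis genes numbered 5 with DESeq2 and 24 by the study's thresholds, and 0 to 32 with each library left out. With each library left out, alternatives added after the data were seen, positions past the study's thresholds numbered 28 to 136 and those read in every shscramble and no shMETTL1 library 32 to 150. As a share of coverage the AlkAniline-Seq log2 difference was -0.087 for BIRC5, 0.074 for STMN1, -0.18 for BUB1B and 0.061 for ANLN. ANLN also turned to 0.12 with the highest position per gene, 0.21 in the methods' t-test and, with each library left out, ranged from -0.78 to 0.62. Without the inputs of shscramble replicate 2 and shMETTL1 replicate 1, chosen after the data were seen, CKS1B was at 0.0056 and PRC1 at -0.021 in the inputs, and with each library left out CKS1B ranged from -1.63 to -0.32 and PRC1 from -0.067 to 0.43. The causes were not tested. Correlations of same-numbered deviations ran from -0.03 to 0.05, which with few and widely scattered libraries cannot show whether replicate numbers pair them. Each AlkAniline-Seq library has an input of the same replicate number, and the main fits left this pairing out. A replicate block gave 0 calls among the mitosis genes and their positions. Its medians were -0.15 in AlkAniline-Seq reads, 0.22 in input reads and 0.06 over input, and it put ANLN at 0.021 in AlkAniline-Seq reads. The few reads per position and the spread between replicates limit the precision of every value.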
